A study of Mus musculus with 8 samples.

Results

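Chaperones and heat shock genes were described in double-positive thymocytes, an immature stage of T cell development with CD4 and CD8 on the same cell. The members were the genes whose single symbol in the array's platform annotation belongs to the heat shock protein (Hsp), Dnaja, Dnajb and Dnajc, Cct2 to Cct8, Hsf or Bag families, leaving out Hspg2 and Hspb pseudogenes, and each gene was read on its brightest probe set. The rule found 87 genes of 18193 with such a probe set. Of these, 68 passed a dim limit of 33.8 signal units on at least 4 arrays and were tested, among 9939 genes tested in all. Both groups were mice aged 4 to 5 weeks that lacked the T-cell receptor alpha gene (Tcra-/-) and carried Cd4-Cre, a recombinase driven by the Cd4 promoter. The Control group held 4 mice labelled c-Myb sufficient and the Mutant group 4 mice labelled c-Myb deficient, with 1 Affymetrix array for each mouse, and the titles number the mice of a group as biological replicates 1 to 4. Values below are in that order. The source names run against these labels, since they give Control mice the genotype Mybf/f and Mutant mice Mybf/w, a floxed and a wild-type allele. Myb itself read 8327 to 10388 on Control arrays and 10512 to 11754 on Mutant arrays. These levels do not settle the conflict, and directions follow the Control and Mutant titles, as Mutant minus Control. Cells had been enriched on columns with an antibody against CD4, and the arrays measured total RNA of the whole preparation, so fewer cells of a type and less RNA per cell cannot be told apart.

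Chaperones bind unfolded or partly folded proteins and help them reach their folded state. HSP70 proteins work in cycles driven by ATP. J proteins (the Dnaj genes) start the cycle and bring the client, while BAG proteins and HSP110 proteins end it by exchanging the nucleotide. HSP90 takes over many kinases and steroid receptors from HSP70. Chaperonins, the cytosolic CCT ring and the mitochondrial Hspd1 and Hspe1 complex, fold proteins inside a chamber. Heat shock factors switch on the inducible members through heat shock elements in their promoters, and chaperones of the endoplasmic reticulum (ER) are switched on by the unfolded protein response through ER stress elements.

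Array medians lay between 30 and 37.9 signal units. Markers of double-positive cells were bright, as Cd8a read 9755 to 11951 and Rag1 10569 to 12221 over the 8 arrays, and of 7 tested markers of these cells 1 (Rag2) fell. Among markers of other cells, 0 of 2 B cell, 8 macrophage and dendritic cell, 1 erythroid, 1 granulocyte and 3 thymic stroma markers passed limma's test (1, 0, 0, 1 and 2 at an unadjusted p under 0.05). The summed signal of macrophage and dendritic cell markers was 512 to 1256 on Control and 719 to 1037 on Mutant arrays, and Pax5, Ms4a1, Ncr1, Mpo, Elane, Foxn1 and Psmb11 were dim on most or all arrays. B cell markers summed to 7114 to 7348 on Control and 7626 to 8573 on Mutant arrays, without overlap. Most of this was Ighm, at 6579 to 6880.5 and 7106 to 8078, which did not pass (adjusted p = 0.0763 in limma). Cd79b read 319.5 to 557 and 417 to 611, and the dim Ms4a1 17.1 to 21.2 and 23.4 to 37.5. Of 3 tested markers of natural killer and gamma-delta T cells, 1 (Gzma) passed and made up most of their summed signal, 2036 to 2581 on Control and 3121 to 4282 on Mutant arrays. Klrd1 read 14.0 to 74.2 on Control and 75.5 to 107.8 on Mutant arrays, without overlap, but did not pass (adjusted p = 0.155). Nkg7 read 24.2 to 70.3 and 46.6 to 87.7 and did not pass either (adjusted p = 0.435), and Il2rb was dim. Of these 3 tested markers, 2 (Gzma and Klrd1) had an unadjusted p under 0.05, against 25.1% of all genes, both higher in Mutant. Thymic stroma markers summed to 807 to 865 and 558 to 815. The part of these cells in the results was not tested. Xist read 4359 on Control replicate 1 and 4129 to 5736 on the Mutant arrays, but 23.4 to 36.7 on Control replicates 2, 3 and 4, so sex goes largely with the groups. In the fit that takes the Xist level as a class, Control replicate 1 alone stands against the Mutant arrays, and 26 genes and 0 members were called (5 members at an unadjusted p under 0.05).

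Many members were high on the same 3 arrays. On Control replicates 3 and 4 and Mutant replicate 4, Hsph1, which encodes the HSP110 exchange factor, read 1623, 1941 and 2155. On the other 5 arrays it read 424 to 557. The deviations of genes from their group means went the same way on these arrays, with correlations across genes of 0.37 and 0.36 between Mutant replicate 4 and Control replicates 3 and 4. Control replicate 2 with Mutant replicate 3, at 0.37, was the other such pair. The ratio of 5' to 3' signal of the GAPDH control was 1.39, 1.32 and 1.24 on these arrays and 1.21 to 1.32 on the other 5. The 18S rRNA control read 7143 on Mutant replicate 4, but 1300 and 1241 on the Control arrays of this set and 676 to 1459 on the other 5. No source used here names a scan or extraction batch, and the part of a batch in this pattern was not tested. The arrays were singled out after the values had been seen, and the main results that rest on them are given below with and without them.

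Promoter windows of 250 bases before and 50 after a gene's start were at hand for 72 of the 87 members (RefSeq, GRCm38.p6). They were searched on both strands for a short heat shock element of 2 units (GAANNTTC or TTCNNGAA), for a long one of 3 units that adds the next GAA or TTC after 2 further bases, so that every long match also holds the short form, and for the ER stress element, CCAAT and CCACG with 9 bases between them. The long heat shock element was in 0.603% of all 32851 windows and in 6.52% of the 92 member windows, those of Hspd1, Hspe1, Hsph1 and Dnajb6. Windows can overlap, so the same letters can count more than once in such a share. The long match of Hsph1 lies in both of its windows, and Hspd1 and Hspe1 share theirs. The short form was in 15.1% of all windows and in 23.9% of member windows. ER stress elements were in 0.119% of all windows and in the windows of 3 members, Hspa5, Hsp90b1 and Dnajc3. The sequences below are stretches before the start of the members to which the results return, with matches in capitals.
Hspe1 (chr1:55088029-55088106, plus strand, 2 overlapping long heat shock elements): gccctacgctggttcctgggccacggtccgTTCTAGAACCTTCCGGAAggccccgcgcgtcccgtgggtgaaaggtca
Dnajb4 (chr3:152193846-152193889, minus strand, short heat shock element): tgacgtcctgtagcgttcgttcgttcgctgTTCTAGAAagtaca
Dnaja1 (chr4:40722314-40722381, plus strand, short heat shock element): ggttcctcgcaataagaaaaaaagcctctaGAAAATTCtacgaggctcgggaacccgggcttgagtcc
Hsph1 (chr5:149636337-149636399, minus strand, short heat shock element): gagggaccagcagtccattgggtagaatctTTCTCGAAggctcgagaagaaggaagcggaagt
Dnajc3 (chr14:118937797-118937875, plus strand, ER stress element): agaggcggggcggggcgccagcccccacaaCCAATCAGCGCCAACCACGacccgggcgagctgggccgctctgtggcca
Hspa5 (chr2:34771995-34772073, plus strand, ER stress element): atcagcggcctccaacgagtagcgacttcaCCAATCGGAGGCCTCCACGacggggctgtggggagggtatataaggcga
Hspd1 and Hspe1 run in opposite directions from starts 216 bases apart, so the Hspe1 stretch lies before both genes (Hspd1 has a further start on the other side of it). The Hspe1 match begins 89 bases before its start, that of Dnajb4 14, of Dnajc3 105 and of Hspa5 65. The Dnajb4 match lies before the second of its 2 starts. In Hsph1 the short match begins 33 bases before the start shown, and a long match lies 36 bases after it. None of these letters was found in the windows of Dnajb1, Dnajc15 or Hspa4l. A match is a run of letters, not a measured binding site.

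Few chaperone genes differed between the groups. Of the 68 tested members, 2 rose (Dnajc15 and Dnajc3), 2 fell (Dnajb4 and Dnajb1) and 64 did not pass limma's test at an adjusted p under 0.05. That is 5.88% of members called, against 9.98% of all genes tested (5.90% higher and 4.08% lower). All 4 called members encode J proteins, but most tested members do so too. Of the tested members 3 were J proteins of class A, 9 of class B and 24 of class C. The groups of 4 arrays did not overlap for 10 members (14.7%), 5 higher and 5 lower, against 17.0% of all genes (9.88% higher and 7.11% lower). At an unadjusted p under 0.05, 19 members (27.9%) passed, against 25.1% of all genes. The same 25.1% is the background for the unadjusted counts by role and by list. Differences are on the scale of log2(signal + 16). Tested members had a median log2 difference of 0.07, all genes one of 0.02, and the median absolute difference was 0.15 and 0.16. The count of called members is thus near or under the background of the comparison.

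**Figure D1:**
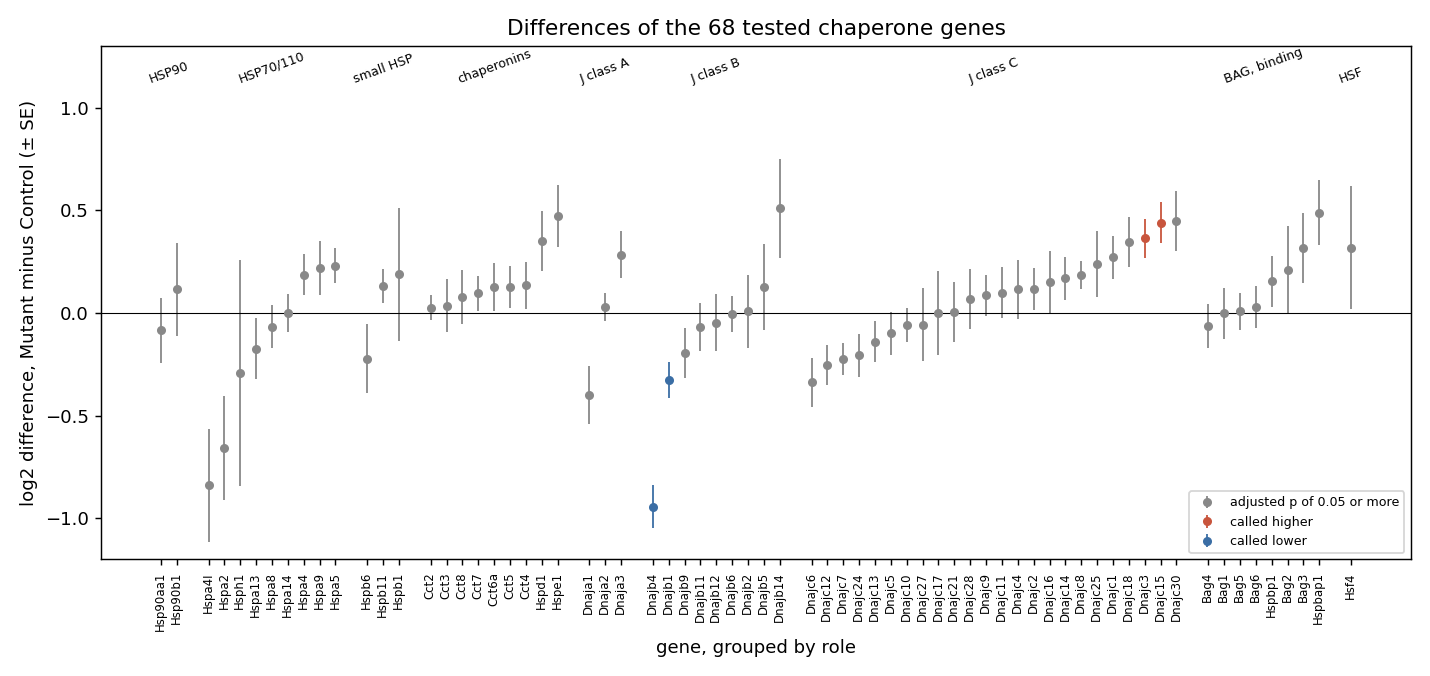
Log2 difference, Mutant minus Control, with its SE for each of the 68 tested chaperone genes, grouped by role; colours mark genes called higher or lower at an adjusted p under 0.05 in limma (n = 4 arrays a group). Dnajb4 at -0.94 lies lowest, and all called genes are J proteins, as are most of the genes drawn.

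Dnajb4 showed the largest fall. This class B J protein is a cytosolic partner of HSP70. Its signal was 1145, 1327, 1416 and 1235 on the Control arrays and 738, 612, 579 and 709.6 on the Mutant arrays. Every Mutant array lay below every Control array, and the signal went from 1281 ± 117 to 659.7 ± 76.1 (SD, n = 4 each). The log2 difference was -0.94 ± 0.11 (SE) (adjusted p = 0.000463 in limma). A second probe set gave the same picture at -1.18, while the dimmest one, at 46.0 to 75.8 signal units on all arrays, differed by 0.05. The call held in each fit without 1 array (adjusted p from 0.000888 to 0.00318) and without the 3 arrays that stood apart (-0.93, adjusted p = 0.00616). With the Xist class in the model the difference was -0.79 and the call was lost (adjusted p = 0.0874).

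Dnajb1, the class B protein known as the main heat-inducible HSP40, fell less. It read 3354, 4105, 3327 and 3228 on the Control arrays and 2880.4, 2546, 2738 and 2963 on the Mutant arrays. The groups did not overlap, although Control replicate 2 lay well above the other Control arrays. The log2 difference was -0.33 ± 0.09 (SE) (adjusted p = 0.0425), and its other probe set differed by -0.46 with groups that did not overlap. The call was lost without Control replicate 1, 2 or 3 or Mutant replicate 1, 2 or 3 (adjusted p up to 0.130). Of the other 7 tested class B genes 0 passed (limma; 0 at an unadjusted p under 0.05 too). Among them Dnajb9 and Dnajb11, J proteins of the ER, differed by -0.19 and -0.07, and Dnajb6 by -0.005. Dnajb14, a J protein of the ER membrane, differed by 0.51 ± 0.24 (SE, adjusted p = 0.221).

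Dnajc15 and Dnajc3 rose. Dnajc15, a J protein of the mitochondrial inner membrane, read 4700.1, 4162, 3996 and 3392 on the Control arrays and 5952, 4833, 5534 and 5660.0 on the Mutant arrays. The highest Control value, on replicate 1, lay just under the lowest Mutant value, on replicate 2. Its log2 difference was 0.44 ± 0.10 (SE) (adjusted p = 0.0202). The call was lost without Control replicate 3 or Mutant replicate 1 or 3 (adjusted p up to 0.0655) and without the 3 arrays that stood apart (0.29, adjusted p = 0.128). Dnajc3 encodes P58IPK, an ER J protein that also restrains the stress kinase PERK. Its signal was 1632, 2122, 1616 and 1778 on the Control arrays and 2186, 2387, 2358 and 2236 on the Mutant arrays. All Mutant arrays were higher than all Control arrays. The log2 difference came to 0.36 ± 0.09 (SE), with an adjusted p = 0.0342. Its 4 other probe sets differed by 0.14 to 0.37, and the groups were apart on 2 of them. Leaving out Control replicate 1, 3 or 4 or Mutant replicate 1, 2 or 3 ended the call (adjusted p up to 0.112), and so did leaving out the 3 arrays (0.31, adjusted p = 0.161). Control replicate 1, the Control mouse with high Xist, was the Control array nearest to the Mutant arrays for Dnajb4 and Dnajc15. With the Xist class in the model Dnajc15, Dnajb1 and Dnajc3 lost their calls (adjusted p = 0.662, 0.601 and 0.258).

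**Figure D2:**
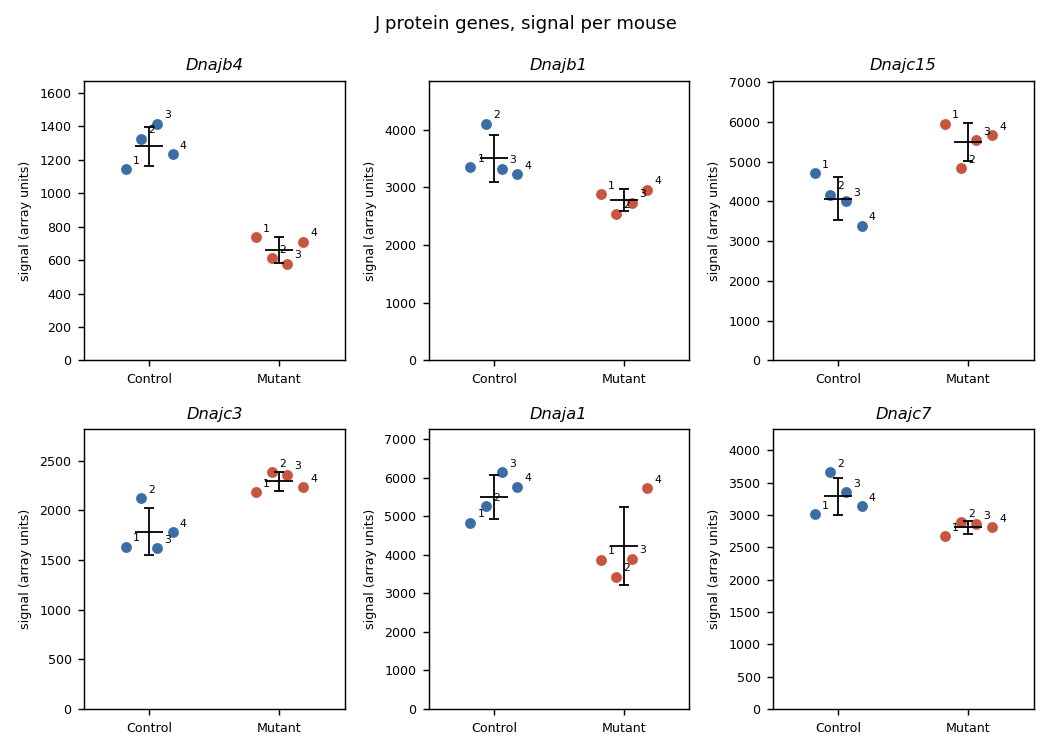
Signal of 6 J protein genes on each array, in array units from 0; points are mice with their replicate number, black bars the mean and SD of 4. Dnajb4 and Dnajb1 lie lower and Dnajc15 and Dnajc3 higher on Mutant arrays without overlap, and Dnaja1 is low on Mutant replicates 1, 2 and 3 but not on replicate 4.

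The other class C genes spread over both sides of 0. In all 24 were tested and 22 did not pass, with differences from -0.34 (Dnajc6) to 0.45 (Dnajc30). Of the 24, 9 had an unadjusted p under 0.05, against 25.1% of all genes. Dnajc7, which binds both HSP70 and HSP90, read 3006, 3662, 3349 and 3132 on the Control arrays and 2674, 2889.6, 2856 and 2807 on the Mutant arrays. The groups were apart, but the log2 difference of -0.22 ± 0.08 (SE) did not pass (adjusted p = 0.0926). Dnajc12 (-0.25) and Dnajc24 (-0.21), whose product takes part in diphthamide synthesis, had lower Mutant arrays without overlap. Dnajc8 (0.19), a protein of the spliceosome, and Dnajc18 (0.35) had higher ones. Adjusted p-values of these 4 lay between 0.10 and 0.256. The other probe set of Dnajc8 differed by -0.04 and that of Dnajc24 by -0.19. Those of Dnajc18 differed by 0.04 and, on one that was mostly dim, 0.26. On all of these the groups overlapped. Dnajc6, the clathrin uncoating factor auxilin, differed by -0.34 ± 0.12 (SE) (adjusted p = 0.0994). Its other probe sets differed by -0.61, with the groups apart, by 0.07 and, on a dim one, by -0.13. Dnajc30, a mitochondrial protein, differed by 0.45 ± 0.15 (SE) (adjusted p = 0.0834). Dnajc6 and Dnajc30 passed without the 3 arrays that stood apart, at -0.46 and 0.63 (adjusted p = 0.0295 and 0.0381).

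Of the class A genes, Dnaja1 differed most. This cytosolic J protein works with Hspa8. It read 4832, 5255, 6146 and 5761 on the Control arrays and 3868, 3432, 3900.3 and 5722 on the Mutant arrays. Mutant replicates 1, 2 and 3 lay below all Control arrays, while Mutant replicate 4 lay among them. The log2 difference was -0.40 ± 0.14 (SE) (adjusted p = 0.102), and the 2 other probe sets differed by -0.27 and -0.33. On both of these Mutant replicate 4 was the highest of the 8 arrays. Without Mutant replicate 4 the Dnaja1 difference was -0.55 (adjusted p = 0.00520), and without all 3 arrays that stood apart -0.43 (adjusted p = 0.0252). No other fit without a single array called it. Mutant replicate 4 is the array that overlapped with Control, so the fit without it is a description and not a test. Dnaja3, the mitochondrial member, differed by 0.28 ± 0.11 (SE) (adjusted p = 0.147). Its dimmer probe sets differed by -0.03 and -0.003. Dnaja2 differed by 0.03 (95% interval -0.13 to 0.18).

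Among HSP70 and HSP110 genes 0 of 9 tested passed in limma (3 at an unadjusted p under 0.05). Hspa8, the constitutive cytosolic HSP70, read 9631, 9954, 11994 and 12288 on the Control arrays and 9849, 9299, 10349 and 12399 on the Mutant arrays. The highest arrays were Control replicates 3 and 4 and Mutant replicate 4, and the groups overlapped. The log2 difference was -0.07 (95% interval -0.30 to 0.16), and 0.005 without the 3 arrays (adjusted p = 0.980). Its other probe sets differed by -0.29, -0.15 and -0.02, all with overlap. Hspa4l, an HSP110 family gene, read 553, 549, 1012 and 933 on the Control arrays and 385, 343, 283 and 696 on the Mutant arrays. Its difference of -0.84 ± 0.27 (SE) did not pass (adjusted p = 0.0805), and the overlap came from Mutant replicate 4, which lay above Control replicates 1 and 2 but below Control replicates 3 and 4. On each of its 4 other probe sets all Mutant arrays lay below all Control arrays, at -0.60 to -0.91. The mean of its probe sets passed (-0.74, adjusted p = 0.0134), as did the brightest one without Mutant replicate 4 (-1.10, adjusted p = 0.0130) or without the 3 arrays (-0.69, adjusted p = 0.0254). No other fit without a single array called Hspa4l. The fits without arrays leave out the one that made the overlap, so they are a description and not a test. Hspa2, a member best known from testis, differed by -0.66 ± 0.25 (SE) (adjusted p = 0.134) at signals of 24.9 to 81.2, partly under the dim limit of 33.8.

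Hspa5, the ER HSP70 called BiP, read 3155, 3068, 3569.9 and 3774 on the Control arrays and 3935, 3688, 3976 and 4295 on the Mutant arrays. Only Mutant replicate 2 overlapped with Control, lying below Control replicate 4. The log2 difference was 0.23 ± 0.08 (SE) (adjusted p = 0.111), and 0.31 without the 3 arrays (adjusted p = 0.0488). Hspa9, the mitochondrial HSP70, and Hspa4 of the HSP110 family differed by 0.22 and 0.19 (adjusted p = 0.341 and 0.278). Hsph1 differed by -0.29 ± 0.55 (SE, adjusted p = 0.793), with a 95% interval from -1.50 to 0.92. Its Control arrays varied more on the log2 scale than 99.9% of the genes tested, and its difference was 0.14 without the 3 arrays. The other probe set of Hsph1 differed by -0.66, with overlapping groups and the same 3 arrays highest. The heat-inducible genes Hspa1a and Hspa1b stayed under or near the dim limit, at 2.9 to 40.4 on all arrays. Their near-identical sequences can share signal. Hspa13 and Hspa14 differed by -0.17 and -0.0007.

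HSP90 genes did not pass (0 of 2 in limma, 0 at an unadjusted p under 0.05). Hsp90aa1, the inducible cytosolic form, read 5670.5, 5266, 7874 and 8598 on the Control arrays and 6109, 5656, 5887 and 7865 on the Mutant arrays. Again Control replicates 3 and 4 and Mutant replicate 4 were high, and the difference was -0.08 (95% interval -0.43 to 0.26). Without these 3 arrays it was 0.11 (adjusted p = 0.443). Hsp90b1, the ER form known as GRP94, read 1809, 1461, 2597 and 3157 on the Control arrays and 2209, 1906, 2225 and 3196 on the Mutant arrays. Its spread followed the same arrays, with a difference of 0.12 (95% interval -0.38 to 0.61), and 0.37 without them (adjusted p = 0.102). The other, dimmer probe set of Hsp90b1 differed by -0.09. On it Mutant replicate 4, at 1219.7, lay below Mutant replicates 1 and 3. Hsp90ab1 and Hsf1 had no single-symbol probe set in this annotation and are not analysed here.

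Chaperonin genes all had differences above 0 on their brightest probe sets, but 0 of 9 passed in limma (2 at an unadjusted p under 0.05). Other probe sets of Cct3 and Cct4 lay on both sides of 0, and that of Cct6a differed by -0.01. The mitochondrial pair differed most. Hspe1, the lid of the complex, read 1872, 1477, 2122 and 2535 on the Control arrays and 2689.6, 2359.5, 2696 and 3240.1 on the Mutant arrays. Its difference was 0.47 ± 0.15 (SE) (adjusted p = 0.0766). Hspd1, the chamber, read 3038, 2666, 3681 and 4609.7 on the Control arrays and 4265, 4012, 4287 and 4985 on the Mutant arrays, a difference of 0.35 ± 0.15 (SE) (adjusted p = 0.162). In both genes Mutant replicates 1, 2 and 3 lay above Control replicates 1 and 2, and Mutant replicate 4 lay above Control replicates 3 and 4. Without the 3 arrays the differences were 0.63 for Hspe1 (adjusted p = 0.0195) and 0.55 for Hspd1 (adjusted p = 0.00897). Both genes passed also without Control replicate 4 (adjusted p = 0.0273 and 0.0282), but in no other fit without a single array. Control replicate 4 was their highest Control array, so that fit is a description and not a test. Hspe1 has a dimmer probe set at 0.21. The 7 tested CCT subunits, which fold actin and tubulin, differed by 0.03 (Cct2) to 0.13 (Cct4). Cct2 read 6877, 6592, 7138 and 7506 on the Control arrays and 7464, 7241, 6737 and 7173 on the Mutant arrays, with overlapping groups (95% interval -0.11 to 0.16).

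**Figure D3:**
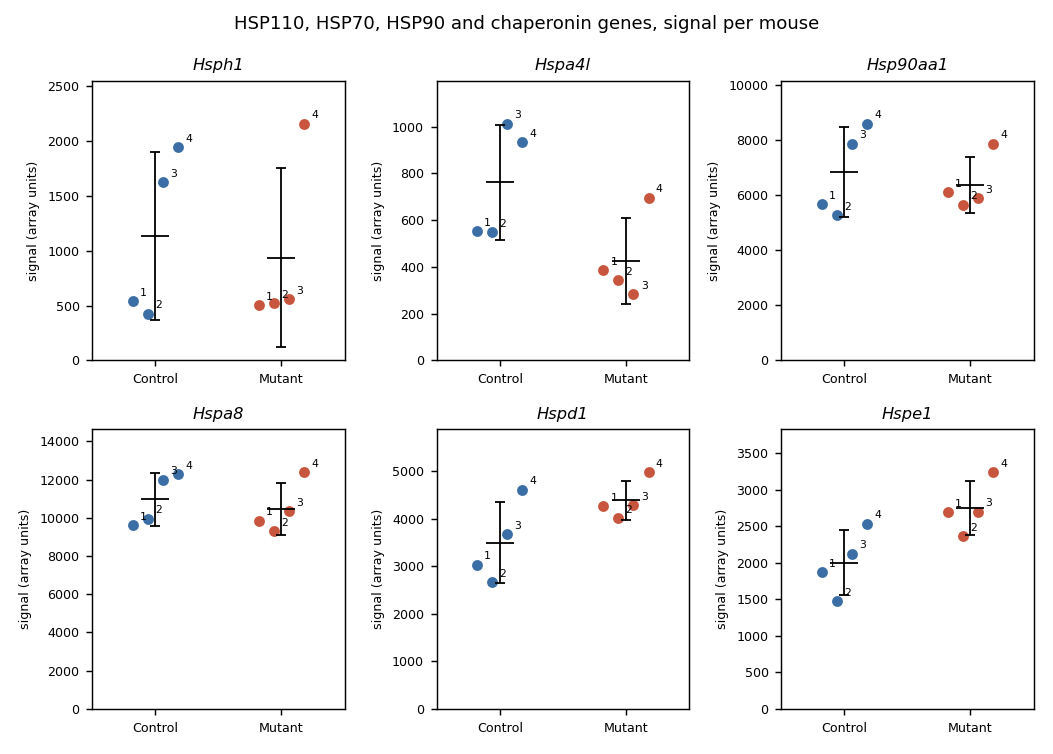
Signal of 6 HSP and chaperonin genes on each array, in array units from 0; points are mice with their replicate number, black bars the mean and SD of 4. Hsph1 is at 424 to 557 on 5 arrays and at 1623 to 2155 on Control replicates 3 and 4 and Mutant replicate 4, which are also the highest arrays of Hspa4l, Hsp90aa1 and Hspa8 or, for Hspd1 and Hspe1, the highest of their own group.

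Small heat shock proteins, BAG proteins and heat shock factors gave no calls in limma (0 of 3, 6 and 1 tested, with 0 at an unadjusted p under 0.05 in each). Of the binding proteins Hspbap1 and Hspbp1 0 passed, with 1 at an unadjusted p under 0.05 (Hspbap1). Hspb11, a protein of the intraflagellar transport machinery, read 1067, 982, 1101 and 1141 on the Control arrays and 1139.6, 1145, 1148 and 1267 on the Mutant arrays. It differed by 0.13 (adjusted p = 0.368). Hspb1 and Hspb6 differed by 0.19 and -0.22. Bag1, an exchange factor that also binds Bcl2, read 1095, 1031, 1136 and 1354 on the Control arrays and 1119.6, 1034, 1034 and 1441 on the Mutant arrays. Its difference was -0.002 (95% interval -0.28 to 0.27). Bag3, which links HSP70 to autophagy, differed by 0.32 ± 0.17 (SE, adjusted p = 0.287). Hspbap1, named for its binding to Hspb1, read 226, 212, 138 and 156 on the Control arrays and 234, 303, 247 and 254 on the Mutant arrays. Its Mutant arrays lay above all Control arrays (log2 0.49 ± 0.16 (SE), adjusted p = 0.0770), but a second probe set differed by -0.21. Hsf4 read 38.3, 6.2, 32.2 and 42.4 on the Control arrays and 42.9, 36.1, 43.2 and 29.1 on the Mutant arrays, around the dim limit on all arrays but 1, and differed by 0.32 (adjusted p = 0.567). Hsf2 was dim on 7 of 8 arrays.

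The 19 untested members were dim and are given without a comparison. They were the chaperonin-like genes Cct6b and Cct8l1, Dnaja4, Dnajb3, Dnajb7, Dnajb8, Dnajb13, Dnajc22, Hsf2, Hspa1a, Hspa1b, Hspa1l, Hspa12a, Hspa12b, Hspb2, Hspb3, Hspb7, Hspb8 and Hspb9. Their signals ran from 1.0 to 51.1, and 13 of them never passed the dim limit.

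Many members shared their highest arrays. For 15 of the 68 tested members (22.1%), Control replicates 3 and 4 and Mutant replicate 4 were the 3 highest arrays, against 8.13% of all genes tested. These 15 were Hspa8, Hspa4l, Hspa13, Hsph1, Hsp90aa1, Hsp90b1, Dnaja1, Dnaja2, Cct3, Cct4, Cct6a, Bag1, Bag2, Dnajc17 and Dnajc21. For 1 member, Dnajc4, the same arrays were the 3 lowest (1.47%, against 6.84% of all genes). The arrays were picked because Hsph1 and several other heat shock genes were high on them. These shares therefore partly count the genes used for the choice, describe the libraries and are not a test. In the fit without them 9 of 67 tested members passed (13.4%, against 7.20% of 9933 genes). The 4 higher ones were Hspd1, Hspe1, Hspa5 and Dnajc30 (5.97%, against 4.32%), and the 5 lower ones Dnajb4, Dnajb1, Dnaja1, Dnajc6 and Hspa4l (7.46%, against 2.88%). That fit holds 2 Control and 3 Mutant arrays. The arrays it leaves out were chosen on values of members, so its shares and calls are a description and not a test of the members.

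**Figure D4:**
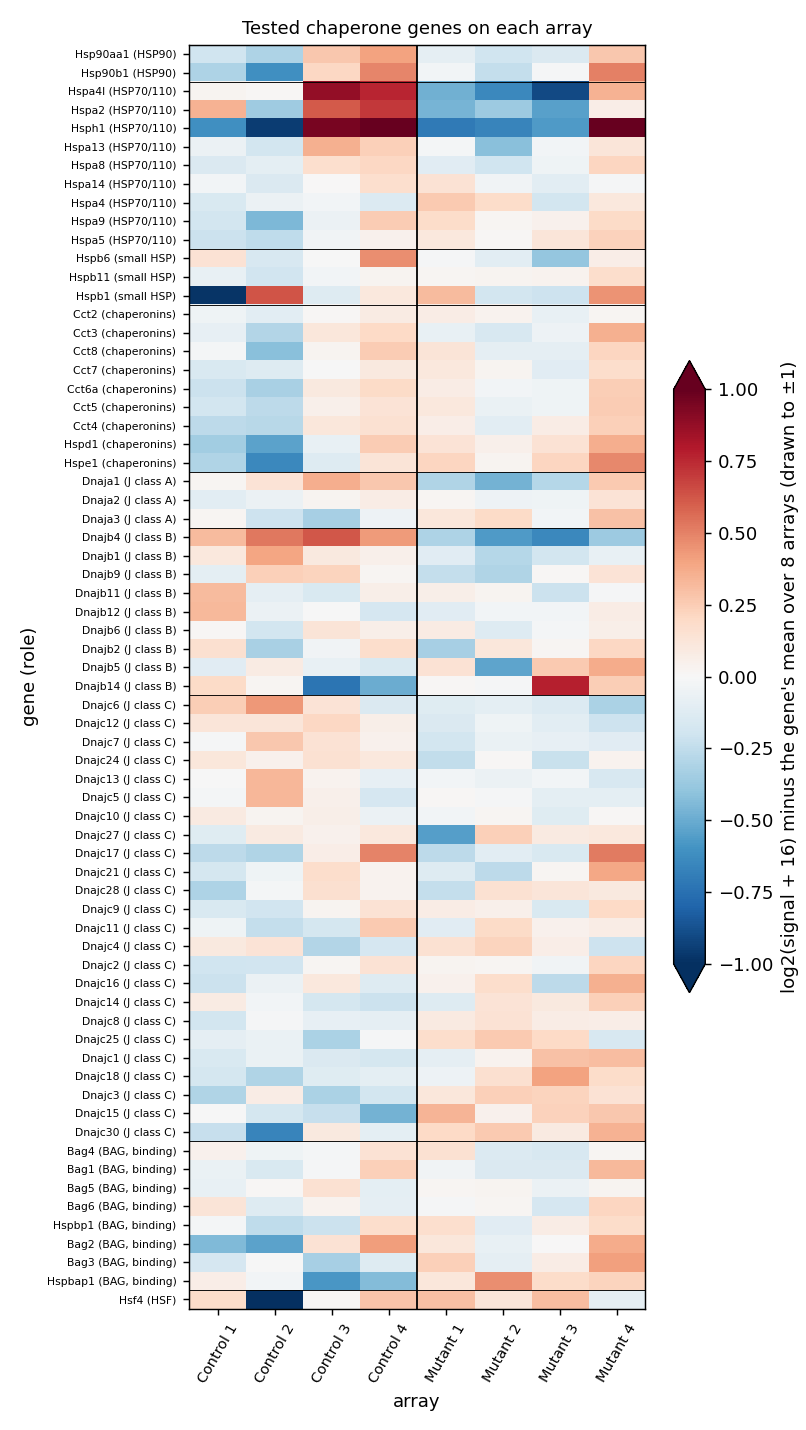
Each of the 68 tested chaperone genes on each of the 8 arrays, as log2(signal + 16) minus the gene's mean over the arrays, with the colour scale ending at 1 in both directions and rows grouped by role. Control replicates 3 and 4 and Mutant replicate 4 are high for Hsph1 and 14 other members, and the rows of Dnajb4 and Dnajc15 separate the groups.

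Other genes of protein folding, in lists outside the rule, gave few calls. Of 13 tested cochaperones of HSP90, 0 passed in limma, with a median log2 difference of 0.05. At an unadjusted p under 0.05, 1 passed (7.69%, against 25.1% of all genes). Fkbp5, an immunophilin that binds HSP90 with steroid receptors, read 2118, 2604, 3968 and 5296 on the Control arrays and 2807, 2980.4, 2610.5 and 4410.1 on the Mutant arrays. It differed by -0.07, and by 0.25 without the 3 arrays (adjusted p = 0.213). For 6 of the 13 (Stip1, Ahsa1, Ahsa2, Fkbp4, Fkbp5 and Chordc1) the 3 arrays that stood apart were the highest, names chosen after their values were seen. Of 7 HSP70 cofactors 0 passed (1 at an unadjusted p under 0.05), and St13, which binds HSP70, differed by -0.08. Of 9 partners of the chaperonin 1 rose (11.1%, against 9.98% of all genes), and 2 passed at an unadjusted p under 0.05 (22.2%, against 25.1%). It was Pdcl3, a phosducin-like cofactor of CCT, which went from 977 ± 34.7 to 1203 ± 61.9 (SD, n = 4 each), a log2 difference of 0.30 ± 0.08 (SE) (adjusted p = 0.0360). The call was lost without any single array other than Mutant replicate 3 (adjusted p up to 0.108) and without the 3 arrays (0.117). Of 10 genes of mitochondrial protein quality control 0 passed (3 at an unadjusted p under 0.05, 30% against 25.1% of all genes). Trap1, the mitochondrial HSP90, differed by 0.30 ± 0.09 (SE) (adjusted p = 0.0631), with all Mutant arrays above all Control arrays.

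Of 21 genes of ER folding and the unfolded protein response 2 rose and 0 fell (9.52%, against 9.98% of all genes), with a median log2 difference of 0.12. At an unadjusted p under 0.05, 8 of them (38.1%, against 25.1% of all genes) passed, 4 higher and 4 lower. Atf6, a sensor of the unfolded protein response, read 95.2, 84.3, 32.0 and 52.9 on the Control arrays and 202, 271, 302 and 232 on the Mutant arrays. The groups were far apart. The log2 difference was 1.77 ± 0.25 (SE), with an adjusted p = 0.00154, and its 2 dimmer probe sets differed by 1.08 and 1.27. Selenos, a selenoprotein of ER-associated degradation, rose by a log2 of 0.40 ± 0.11 (SE) (adjusted p = 0.0366). It lost the call without Control replicate 1, 3 or 4 or Mutant replicate 2, 3 or 4 (adjusted p up to 0.103), without the 3 arrays (0.175) and in the mean of its probe sets (0.129). The folding genes Calr, Canx and Pdia4 differed by 0.08, 0.25 and 0.56 and did not pass. Other probe sets of Canx differed by -0.09 and 0.38. Pdia4 read only 52.0 to 168.1, and its dim second probe set differed by -0.21. Below 0 lay Ddit3, the transcription factor CHOP, at -0.35 ± 0.11 (SE) (adjusted p = 0.0625), with all Mutant arrays below all Control arrays. Eif2ak3, which encodes the kinase PERK, differed by -0.31 ± 0.09 (SE) (adjusted p = 0.0612). Xbp1, a transcription factor of the response, and Edem1, a factor of ER-associated degradation, differed by -0.24 and -0.16 and did not pass either. Of 10 tested immediate early genes, which can also respond to cell dissociation, 2 rose and 1 fell (30%, against 9.98% of all genes). At an unadjusted p under 0.05, 5 passed (50%, against 25.1% of all genes), 3 higher and 2 lower. Jun rose by a log2 of 1.60 ± 0.22 (SE) (adjusted p = 0.00134) and Klf6 by 0.40 ± 0.09 (SE) (adjusted p = 0.0227), while Egr1 fell, with a log2 difference of -0.60 ± 0.14 (SE) (adjusted p = 0.0215). Egr1 lost the call without Mutant replicate 1, 2 or 3 (adjusted p up to 0.0701), and Klf6 without Control replicate 3 or 4, Mutant replicate 2 or 3, or the 3 arrays (up to 0.128). Fos read 8.1, 11.4, 82.3 and 26.1 on the Control arrays and 2.4, 3.2, 1.4 and 26.0 on the Mutant arrays and was above the dim limit on 1 array.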

How the data were processed

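RNA of 8 thymocyte preparations, each from its own mouse, was hybridised to Affymetrix arrays of 1 colour. The values the authors deposited are linear intensities, 1 for each probe set of an array. GCOS made them, per the submitters' processing notes. No source used here gives the software's version or parameters. The 2% trimmed mean was 250.0 on every array, so each had been scaled. Such scaling removes a difference in total RNA per cell. Of 45101 probe sets, 34945 had 1 gene symbol in the platform annotation, in which the gene identifiers of all 87 members matched the RefSeq table of GRCm38.p6. A gene with several probe sets was read on the one whose mean log2(signal + 16) was highest. It was tested when this signal passed 33.8, the median of the table, on at least 4 arrays. Fold changes on this scale understate the change of dim genes.

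The model was fitted across all genes in R 4.3.3 with limma 3.58.1 (lmFit, eBayes with a variance trend, two-sided), adjusted by Benjamini-Hochberg over 9939 genes, with a threshold of 0.05. All adjusted p-values come from these fits. The members, lists and rules were chosen with earlier results of these data known. Every member could be named. All array values are given for called members, the brightest member of each role and members whose values turn on single arrays, the last chosen after their values were seen. Of each further list, up to 3 called genes with the largest difference or else its brightest gene are named, and others were picked after their values were seen. The main fit did not pair the mice by replicate number. Deviations of same-numbered arrays correlated at 0.003, 0.17, -0.27 and 0.36. As deviations from the means of small groups, they cannot settle whether the mice were paired. Alternatives varied the pseudocount, the filter on dim genes, the choice of probe set, the normalization, the variance model, array weights and covariates, or left out arrays. Precision is limited by the number of arrays. The planned protein comparisons were not run.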

Additional observations from a re-analysis of the deposited data

Results flagged for a closer look

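A single array stood far off its group of 4 in 8 of 154 cases (a gene in a group), where about 1 in 20 would do so by chance. Hsph1 read 2155.2 on Mutant replicate 4 and 504 to 557 on the other Mutant arrays. On the same array Dnajc17 read 647.3 against 369.6 to 413 and Hspb11 1267.1 against 1139.6 to 1148. Dnajb1 read 4104.8 on Control replicate 2 and 3228 to 3354 on the other Control arrays. Mutant replicate 3 was low for Bag5 (444.8 against 469.9 to 474) and for Pdcl3 (1110.7 against 1230.4 to 1237). Mutant replicate 1 was low for Dnajc28 (100.3 against 130.4 to 136) and high for Trap1 (1093.4 against 958 to 977).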

How the results depend on the processing

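No result changed direction while called. Dnajb4 kept its call in 20 of 21 alternatives, Dnajc15 in 15, and Dnajb1 and Dnajc3 in 11 each. All 4 lost it with the Xist class in the model (adjusted p = 0.0874, 0.662, 0.601 and 0.258), where 26 genes, 0 members either way and 0 genes of the pathway lists either way were called in limma (5 members and 9 list genes at an unadjusted p under 0.05). Across fits without 1 array, the count of all genes called ran from 502 to 1194, members higher from 0 to 3, members lower from 1 to 4, list genes higher from 2 to 4 and list genes lower from 0 to 2, against 992, 2, 2, 5 and 1. The count of all genes was 502 without Control replicate 3 and 607, 515 and 578 without Mutant replicates 1, 2 and 3. Array weights gave 1748 genes, 4 members higher, 5 lower, and 8 and 6 list genes. Without a variance trend there were 813 genes, 0 members higher, 1 lower and 3 list genes higher (19 members at an unadjusted p under 0.05). With no filter 743 of 18193 genes were called. Of the members 1 was higher, and the 2 lower ones were Dnajb4 and Hspb7, a dim member at 1.0 to 21.7 signal units (adjusted p = 0.0480). The mean over probe sets, and the fit without probe sets prone to cross-hybridise, each gave 2 list genes lower. The replicate block gave 1035 of 9939 genes, with 4 of 68 members higher and 4 lower, and Dnajb1 had an adjusted p of 0.0650 under it. Without the 3 arrays that stood apart, an alternative chosen after seeing the data, 715 of 9933 genes were called. Among them 4 members were higher, 5 lower and 2 list genes higher. The causes of these changes were not tested. Of the tested members, 10 others gained a call in at least 1 alternative, and 28 uncalled ones changed sign in at least 1.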

Other observations

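Dnajc19, a mitochondrial J protein gene, has 3 probe sets that the annotation shares with a pseudogene, so it was not among the members. The brightest read 622 ± 63.2 on Control and 659 ± 22.2 (SD, n = 4 each) on Mutant arrays, a log2 difference of 0.09, and the other 2 differed by 0.07 and 0.08. The groups overlapped on all 3.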
